A study of Homo sapiens with 6 samples.

Results

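The tumour necrosis factor (TNF) superfamily ligands and their receptors were described in untreated and decitabine-treated breast cell lines. The members were taken by symbol alone: every symbol that starts with TNFSF or TNFRSF, and TNF, LTA, LTB, LTBR, FAS, FASLG, CD40, CD40LG, CD27, CD70 and NGFR. This gave 44 of the 23617 gene symbols of the MDA-MB-231 table, with 118 of its 43497 transcript entries: 17 ligands, 7 death receptors, 4 decoy receptors, 15 other receptors and 1 readthrough transcript joining TNFSF12 and TNFSF13. MDA-MB-231 is a human breast cancer cell line, and HMLER is a line of human mammary cells transformed in culture with defined genes. Cells were left untreated or received 10 µM decitabine (5-aza-2'-deoxycytidine, DAC) daily and were collected at 72 h. DAC is a cytidine analog that is built into DNA and traps DNA methyltransferases, so that methylation of CpG sites is lost as cells divide. PolyA RNA was sequenced from 1 untreated and 1 DAC-treated MDA-MB-231 library and from 2 untreated and 2 DAC-treated HMLER libraries, each made from a pool of several extractions. One label gives the untreated MDA-MB-231 library another cell line number, and its title, which gives MDA-MB-231, was followed.

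Levels are in FPKM, fragments scaled by transcript length and by mapped fragments, and were summed over the transcripts of a symbol. A gene was counted as higher or lower in MDA-MB-231 when its DAC/untreated ratio was above 2 or below 0.5 and at least 1 library had 1 FPKM or more. With 1 library per condition these differences cannot be checked against replicates, and no p-value is given. Low values were steps of single reads, so the reads behind each value could be inferred (651 low values per library, 100% within 0.1 of a whole read). The 95% intervals given for ratios cover counting error only and say nothing of the spread between cultures. For HMLER the authors deposited a merged value for each condition, and only for transcripts higher after DAC. The 2009 transcripts listed there are all at least 2-fold higher and reach 1 FPKM with DAC, so a member that is not listed may be lower, unchanged or weakly expressed in HMLER.

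Ligands of this family are mostly trimeric membrane proteins, some of them shed, that bind receptors with cysteine-rich extracellular domains. Death receptors carry an intracellular death domain and can recruit FADD and caspase-8 to start apoptosis, as FAS and the receptors for TRAIL (the product of TNFSF10) do. Decoy receptors bind ligand but transmit no death signal. Most other receptors recruit TRAF adaptor proteins and activate NF-κB, either by the canonical route through RELA and NFKB1 or by the non-canonical route through NFKB2 and RELB. Many ligands and co-stimulatory receptors of the family are known chiefly from T cells, B cells and antigen-presenting cells.

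FAS, TNFSF9, TNFSF18 and TNFRSF1B were the 4 members higher after DAC in both lines. These are a death receptor, a pair of co-stimulatory ligands that bind TNFRSF9 (4-1BB) and TNFRSF18 (GITR), and the second TNF receptor. In MDA-MB-231, 18 members reached 1 FPKM in at least 1 library. Of these, 6 were higher (33.3%), against 10.8% of all 12525 genes past the same filter, and 1 was lower against 4.82%. TNFSF18 and TNFRSF1B passed the filter only through the DAC-treated library, so they could differ only upward. Of the 16 members at 1 FPKM or more untreated, 4 were higher (25.0%), against 4.29% of all such genes, and 1 was lower, against 5.24%. In HMLER, 9 members were listed as higher (20.5% of 44), against 7.85% of all symbols of the MDA-MB-231 table. Of the 18 members past the filter 5 were listed (27.8%), against 10.9% of all genes past it. For being higher in both, 4 of the 18 compare with 3.66% of the 12525 genes. Since TNFSF18 and TNFRSF1B are among these 4 and among the 5 listed, neither count is a measure of the family. In HMLER, TNFRSF10C, TNFRSF4, TNFSF18 and TNFSF4 were under 1 FPKM untreated and reached it only with DAC. The 9 of 44 is therefore no measure of the family either. With 1 FPKM or more in both MDA-MB-231 libraries, 2 members, FAS and TNFSF9, were higher in both lines. Genes at 1 FPKM or more in both libraries had a median ratio of 0.912. Dividing every ratio by it left the same 6 members higher and none lower. On that scale 77.3% of calls over all genes were higher, against 69.1% as deposited.

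**Figure D1:**
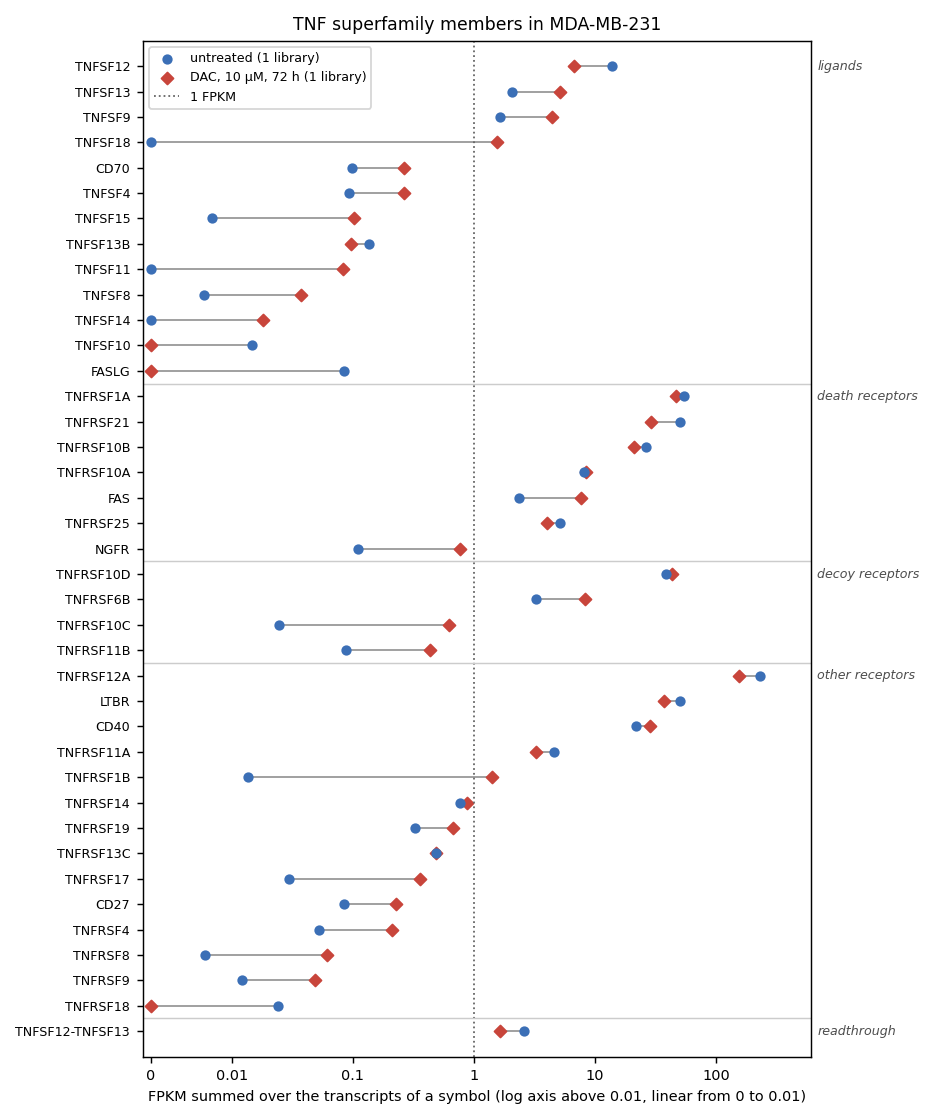
FPKM of the 39 members above 0 in at least 1 MDA-MB-231 library, summed over transcripts, untreated (circles) and DAC (diamonds), 1 library each, on an axis that is logarithmic above 0.01 and linear below, grouped by role. The most abundant receptors lie to the right with both symbols close together, and most members under 1 FPKM have the DAC symbol to the right of the untreated one.

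Because DAC acts at CpG sites, the bases just before the start of the members higher in both lines are shown with each CG in capitals. They come from the RefSeq promoter table (GRCh38.p14) and were placed in hg19 by an exact match to GRCh37. The FAS stretch was ended at the first base of the longest FAS transcript of the table. Each is printed 5′ to 3′ on the gene's own strand.
FAS, chr10:90750305-90750413, plus strand: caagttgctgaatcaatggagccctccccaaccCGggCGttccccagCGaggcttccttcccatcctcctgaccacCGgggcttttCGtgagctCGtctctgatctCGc
TNFRSF1B, chr1:12226798-12227047, plus strand: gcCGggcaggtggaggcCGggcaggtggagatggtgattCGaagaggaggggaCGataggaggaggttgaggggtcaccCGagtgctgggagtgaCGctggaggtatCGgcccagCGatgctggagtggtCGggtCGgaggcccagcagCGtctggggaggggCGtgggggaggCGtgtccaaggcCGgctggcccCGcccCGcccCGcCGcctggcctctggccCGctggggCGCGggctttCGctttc
TNFSF9, chr19:6530787-6531036, plus strand: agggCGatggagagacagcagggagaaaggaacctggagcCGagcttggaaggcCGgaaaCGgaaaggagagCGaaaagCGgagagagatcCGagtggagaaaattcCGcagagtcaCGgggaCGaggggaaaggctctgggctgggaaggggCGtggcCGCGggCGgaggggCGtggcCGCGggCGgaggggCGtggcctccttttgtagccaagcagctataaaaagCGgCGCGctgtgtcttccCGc
TNFSF18, chr1:173020082-173020331, minus strand: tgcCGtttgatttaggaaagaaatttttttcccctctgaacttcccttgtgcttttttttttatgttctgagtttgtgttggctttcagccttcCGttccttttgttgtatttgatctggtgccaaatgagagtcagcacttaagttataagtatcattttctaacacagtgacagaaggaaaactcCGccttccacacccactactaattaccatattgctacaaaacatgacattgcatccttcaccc

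The 4 stretches differ in CpG content. TNFSF9 holds 23 CpG in 250 bases, a ratio of observed to expected CpG of 1.014. TNFRSF1B holds 22 in 250 (0.729), and FAS holds 7 in the 109 shown (0.727). Over the full 250 bases of the same FAS entry the ratio was 0.568, and the other 2 FAS entries had 0.460 and 0.746. TNFSF18 holds only 3 in 250 (0.332), in a stretch with 38.8% G and C. The upstream sequence of members higher in both lines thus ranged from CpG-rich for TNFSF9 to CpG-poor for TNFSF18.

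Promoter entries could be read for 28 of the 44 members, and the 16 without one include abundant members such as TNFRSF12A, TNFRSF10B, TNFRSF10D and CD40. A ratio above 0.6 in the 250 bases before the start, in at least 1 entry of the symbol, was found for 9 of the 28 (32.1%), against 50.6% of all symbols of the promoter table and 88.0% of those of genes at 1 FPKM or more. Of the 28, 17 were listed under 1 FPKM in both libraries, and 2 of these were above 0.6 (11.8%). The 17 include TNF, LTA and LTB, whose listed 0 is no measure of expression, as described below. Among the 5 members with an entry that passed the filter without being called, 4 were above it. Of the 5 HMLER-listed members with an entry, 3 were above 0.6 (60%), beside 72.5% of all symbols listed in HMLER. The AP-1 letters TGANTCA, which read the same on both strands, occurred in 16.2% of member entries and 6.57% of all entries of the same length. The NF-κB consensus, searched on both strands, occurred in 24.3% and 5.21%. Most matches were in members listed under 1 FPKM in both libraries (AP-1 in 5 and NF-κB in 7 of 23 entries). Entries of LTA and LTB are among the 7. Entries of higher members held 1 and 2 of 9, and those of HMLER-listed members 1 and 1 of 7. Members past the filter and not called had 0 of 5 for both. Some entries of 1 symbol overlap almost fully, as for LTB and TNFSF14, and were counted apart. These are matches of letters and not binding sites.

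The ligands that could be read were scarce in MDA-MB-231. Summed over the 17 ligands, the level was 18.0 FPKM untreated and 18.7 FPKM after DAC, out of 513.9 and 416.6 FPKM for the family. TNF, LTA and LTB are in these sums at 0, which is no measure of their expression, as described below. The sum over all genes was 589238 FPKM untreated and 480455 FPKM after DAC. Only 4 of the ligands that could be read reached 1 FPKM, of which 3 were higher and 1 lower after DAC. TNFSF9 (4-1BBL), a co-stimulatory ligand for T cells at chr19:6531037-6535935, was at 1.65 FPKM untreated and 4.41 FPKM after DAC, a ratio of 2.67 (2.12 to 3.38). The bounds that Cuffdiff set around these values overlapped (0 to 3.82 and 0.141 to 8.68 FPKM). In HMLER its merged value was 5.37 FPKM untreated and 20.5 FPKM after DAC, a ratio of 3.82, so TNFSF9 was the ligand with the highest level among those listed there.

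TNFSF18 (GITRL), at chr1:173008342-173020081, was listed at 0 in untreated MDA-MB-231 and at 1.56 FPKM after DAC, which corresponds to 0 and 36 reads (25.2 to 49.8). The lower 95% counting limit of the ratio was 9.33. In HMLER it was listed at 0.137 and 3.46 FPKM, a ratio of 25.2, larger than that of 90.6% of the listed transcripts. TNFSF18 thus stood at or near 0 without DAC in both lines and above 1 FPKM with it.

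The neighbouring ligand genes TNFSF12 and TNFSF13 on chromosome 17 differed in opposite directions. TNFSF12 (TWEAK, the ligand of TNFRSF12A), at chr17:7451825-7461207, was the most abundant ligand without DAC, at 13.8 FPKM untreated and 6.73 FPKM after DAC, a ratio of 0.487 (0.418 to 0.542). TNFSF13 (APRIL, a B cell survival factor), at chr17:7461609-7464925, was at 2.06 and 5.14 FPKM, a ratio of 2.49 (2.03 to 2.96). The readthrough transcript that covers both was at 2.58 and 1.63 FPKM (0.633, 0.496 to 0.803). TNFSF12 lies barely below 0.5: divided by the median of 0.912 it was 0.534, and it was no longer called. The readthrough transcript overlaps both genes, so the split of reads between the 3 symbols depends on the transcript model. The value of TNFSF13 is itself a sum over transcripts that trade places, since NR_073490 was at 1.29 FPKM untreated and 0.000987 after DAC, while NM_172087 was at 0 and 1.41 FPKM.

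The other ligands, apart from TNF, LTA and LTB, which could not be read, stayed under 1 FPKM. TNFSF4 (OX40L) was at 0.0927 and 0.266 FPKM (13 and 37 reads; ratio 2.86, 1.49 to 5.87), and TNFSF15 (TL1A) at 0.00758 and 0.103 FPKM (2 and 28 reads; 13.6, 3.55 to 122). Both were higher without the FPKM filter, and TNFSF4 was also listed in HMLER, at 0.177 and 1.96 FPKM (ratio 11.1). CD70 had 3 and 8 inferred reads, TNFSF13B (BAFF) 14 and 10, TNFSF8 1 and 4, TNFSF11 (RANKL) 0 and 7, and TNFSF14 (LIGHT) 0 and 2. FASLG, the ligand of FAS, had 6 reads untreated and 0 after DAC, so that it was listed at 0 with DAC and the upper counting limit of its ratio was 0.855. TNFSF10 (TRAIL) had 1 and 0 reads, and a difference was not detectable at this depth.

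TNF, LTA and LTB, the founding ligands, and CD40LG and TNFRSF13B were listed at 0 in both MDA-MB-231 libraries. For TNF, LTA and LTB this is no measure of expression. They lie in the major histocompatibility region on chromosome 6, which the table lists again on alternative haplotype contigs (TNF has 8 entries on 8 contigs). Of 213 symbols with such copies 149 were at 0 in both libraries (70.0%), against 20.8% of the other symbols, and these included BAG6, CLIC1 and NEU1, genes used by nearly every cell and named here after their values were seen. None of the 3 ligands was listed in HMLER.

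Death receptors were abundant in MDA-MB-231 and, apart from FAS and NGFR, differed by less than 2-fold between its libraries. Their summed level was 145.6 FPKM untreated and 117.4 FPKM after DAC. The sum over all genes was also lower after DAC, at 589238 FPKM untreated and 480455 FPKM with it. The median log2 change of the 6 death receptors that passed the filter, with 1 FPKM added, was -0.24, beside -0.08 for all genes that passed it. In order of untreated level, TNFRSF1A (the main TNF receptor) was at 53.6 and 46.5 FPKM (0.868, 0.831 to 0.905). TNFRSF21 (DR6) was at 49.99 and 29.1 FPKM (0.582, 0.560 to 0.604), the lowest ratio among the death receptors. TNFRSF10B (DR5) was at 26.3 and 20.9 FPKM, TNFRSF10A (DR4) at 8.04 and 8.38 FPKM, and TNFRSF25 (DR3) at 5.14 and 4.04 FPKM. The counting interval of the ratio included 1 only for TNFRSF10A (0.924 to 1.18), and the Cuffdiff bounds overlapped for all 5. TNFRSF25 turned direction with the transcript used, its largest transcript being at 1.97 and 2.34 FPKM.

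FAS (chr10:90750414-90775542), the receptor of FASLG, was the single death receptor past 2-fold with 1 FPKM or more. It had 246 inferred reads untreated and 810 after DAC, a ratio of 3.28 (2.87 to 3.84). Among the 6 higher members it was the only one whose largest transcript had Cuffdiff bounds that did not overlap between the libraries. That comparison rests on which transcript the reads were given to. In the untreated library nearly the whole level was on NM_152872 at 2.34 FPKM (bounds 0.0534 to 4.64), and after DAC the whole level was on NM_000043, the full-length transcript, at 7.70 FPKM (2.13 to 13.3). The other 5 FAS transcripts were at 0 in both libraries. In HMLER, NM_000043 was listed with a ratio of 2.98, and NM_152871 at 0.823 and 2.10 FPKM (2.55). NM_152872 was not listed there, so the summed level and not the transcript is the more cautious reading. ACTA2, which overlaps FAS on the other strand, was at 0.705 and 15.1 FPKM in MDA-MB-231, and FAS-AS1 at 0.0174 and 0.0876 FPKM. Whether reads were counted by strand is not given in the sources used here, so a share of ACTA2 reads in FAS was not tested.

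NGFR (p75), a neurotrophin receptor with a death domain, was under 1 FPKM in both MDA-MB-231 libraries. It had 15 inferred reads untreated and 105 after DAC, at 0.109 and 0.771 FPKM (ratio 7.04, 4.08 to 13.0). In HMLER it was listed at 2.39 and 11.5 FPKM, a ratio of 4.80. TNFRSF10A was listed in HMLER as well, at 11.9 and 26.6 FPKM (2.24, larger than 12.3% of the listed ratios), while its MDA-MB-231 ratio was 1.04. Death receptors were thus 3 of the 9 members listed in HMLER.

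**Figure D2:**
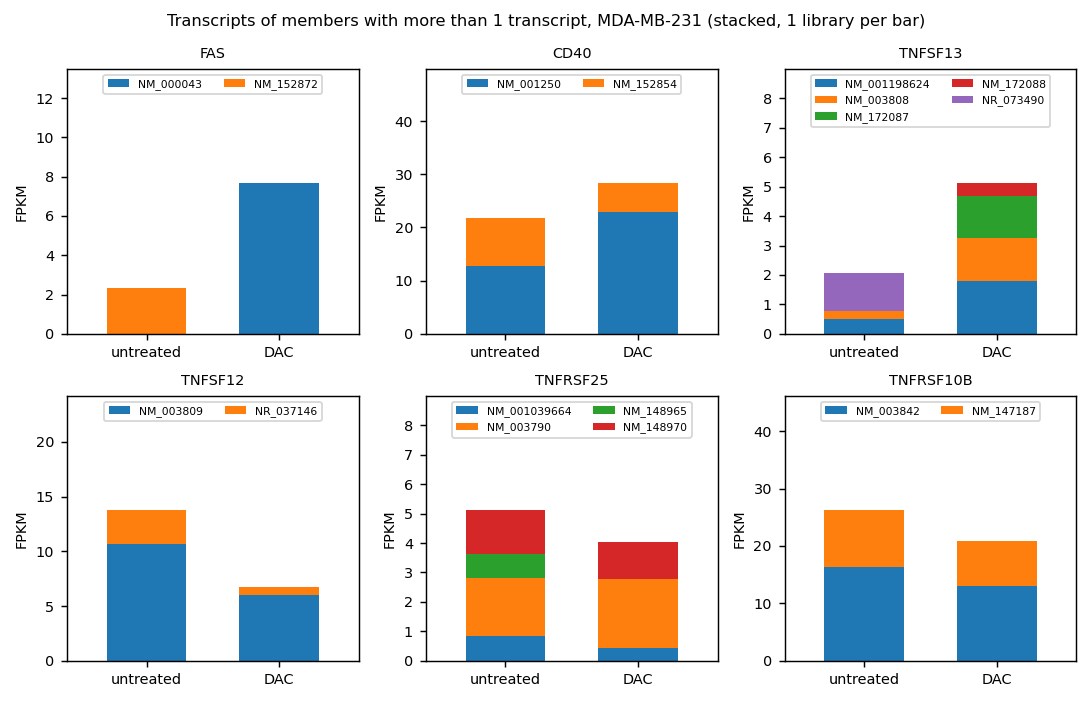
FPKM in the untreated and DAC-treated MDA-MB-231 library, 1 library per bar, stacked by transcript for FAS, CD40, TNFSF13, TNFSF12, TNFRSF25 and TNFRSF10B. The FAS bar is all NM_152872 untreated (2.34 FPKM) and all NM_000043 after DAC (7.70 FPKM), and the TNFSF13 bars hold different transcripts as well.

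The 4 decoy receptors summed to 41.8 FPKM untreated and 52.6 FPKM after DAC. TNFRSF10D, a TRAIL decoy with a shortened death domain, carried most of this, at 38.5 and 43.3 FPKM (ratio 1.12, 1.08 to 1.17). TNFRSF6B (DcR3), a soluble decoy for FASLG at chr20:62328005-62330037, was at 3.22 and 8.23 FPKM (2.55, 2.08 to 3.15) and was the only decoy called. It lies within the RTEL1 locus, and the other transcripts there went the other way: RTEL1 was at 11.3 and 5.29 FPKM and the RTEL1-TNFRSF6B readthrough at 5.47 and 3.40 FPKM. The split of reads between TNFRSF6B and this readthrough depends on the transcript model, so the TNFRSF6B call does as well. The bounds of TNFRSF6B reached 14.9 and 22.3 FPKM from 0, and it was not listed in HMLER.

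TNFRSF10C, the TRAIL decoy anchored in the membrane by a lipid, and TNFRSF11B (osteoprotegerin), a soluble decoy for TNFSF11, were low. TNFRSF10C was at 0.0245 and 0.623 FPKM in MDA-MB-231, or 1 and 34 reads (25.4, 5.74 to 1391). In HMLER it was listed at 0.327 and 10.2 FPKM, a ratio of 31.0 and the largest among members that were above 0 without DAC. TNFRSF11B was at 0.0876 and 0.430 FPKM, or 8 and 39 reads (4.91, 2.26 to 12.2), and was not listed in HMLER. The 4 TRAIL receptor genes lie side by side on chromosome 8 and are similar in sequence, and the untreated value of TNFRSF10C was not a whole number of reads, so reads shared with its neighbours cannot be set apart.

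Among receptors for TRAIL, the 2 lines therefore differed in which were listed or called. In MDA-MB-231 the signalling receptors TNFRSF10A and TNFRSF10B and the decoy TNFRSF10D had ratios between 0.795 and 1.12, with TNFRSF10C alone past 2-fold when no filter was applied. In HMLER, TNFRSF10A and TNFRSF10C were listed and TNFRSF10B and TNFRSF10D were not. A test between the lines was not possible with merged values and tables normalized separately.

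The other receptors held most of the family's level, 305.9 FPKM untreated and 226.2 FPKM after DAC, where the sum over all genes was also lower after DAC. TNFRSF12A (Fn14), the receptor of TNFSF12, was the most abundant member, at 227.3 and 153.5 FPKM (0.675, 0.652 to 0.699), or 44.2% of the family's FPKM untreated and 36.8% after DAC. LTBR (lymphotoxin β receptor) was at 50.4 and 36.8 FPKM (0.729), and TNFRSF11A (RANK) at 4.59 and 3.24 FPKM (0.707). CD40, which binds CD40LG, was at 21.8 and 28.4 FPKM (1.31, 1.23 to 1.42). CD40 differed between transcripts, NM_001250 being at 12.7 and 23.0 FPKM and NM_152854 at 9.06 and 5.48 FPKM, with bounds that overlapped for both. The 8 most abundant members without DAC made up 93.8% of the family's level untreated and 87.7% after DAC, and of these only TNFSF12 was called.

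TNFRSF1B (TNFR2), at chr1:12227048-12269285, had the largest ratio of the members above 0 in both MDA-MB-231 libraries. It was at 0.0135 FPKM untreated and 1.41 FPKM after DAC, or 2 and 208 inferred reads, a ratio of 105 (28.6 to 870). In HMLER it was listed at 1.98 and 5.53 FPKM, a ratio of 2.80. TNFRSF1B was thus nearly absent from untreated MDA-MB-231 and above 1 FPKM in untreated HMLER, in tables that were normalized separately.

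The remaining receptors of this class were under 1 FPKM. TNFRSF19 (TROY) was at 0.324 and 0.670 FPKM (55 and 113 reads; 2.07, 1.49 to 2.91) and TNFRSF17 (BCMA) at 0.0297 and 0.359 FPKM (1 and 12 reads; 12.1, 1.79 to 516). TNFRSF14 (HVEM) had 49 and 56 reads and TNFRSF13C (BAFF receptor) 15 and 15. TNFRSF4 (OX40), the receptor of TNFSF4, had 2 and 8 reads in MDA-MB-231, with a ratio whose interval reached below 1 (4.03, 0.803 to 38.9). In HMLER TNFRSF4 was listed at 0 untreated and at 3.12 FPKM after DAC, so both partners of the OX40 pair were listed there. CD27 had 4 and 11 reads, TNFRSF8 (CD30) 1 and 9, TNFRSF9 3 and 12, and TNFRSF18 1 and 0.

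**Figure D3:**
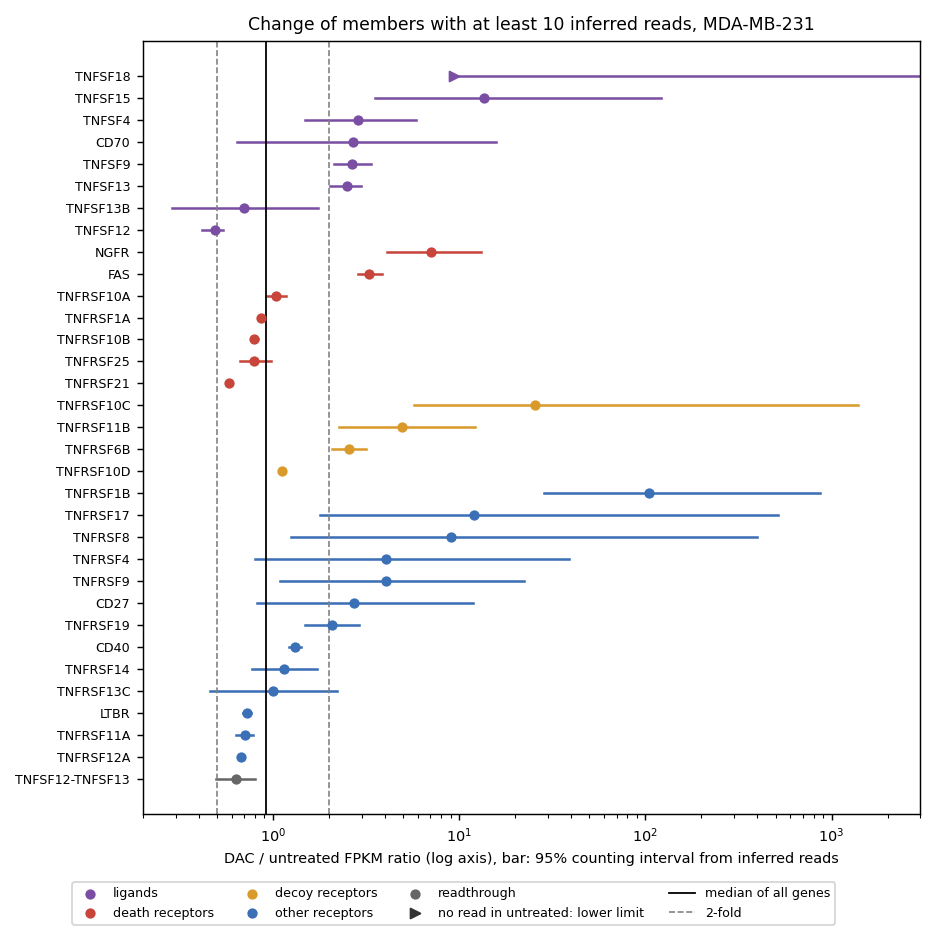
DAC/untreated ratio of FPKM in MDA-MB-231 (log axis) for the 33 members with at least 10 inferred reads over both libraries, grouped by role, with 95% counting intervals as bars, the median of all genes as a solid line and 2-fold as dashed lines. Receptors with many reads lie near the median line with short bars, and the members with few untreated reads lie to the right with long bars.

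Calls without the filter of 1 FPKM rest on few reads. With no filter, 21 of the 39 members above 0 were higher, against 27.9% of all genes above 0, and 4 were lower, against 5.81%. With at least 10 inferred reads over both libraries, chosen after the data were seen, 33 members could be compared, of which 18 were higher, against 19.8% of all genes, and 1 was lower, against 4.32%. Of these 18, 11 had under 10 reads untreated and passed only through the DAC-treated library, so their count is no measure of the family. Among the 22 members with at least 10 reads untreated, 7 were higher (31.8%), against 10.6% of all such genes, and 1 was lower, against 4.78%. These 7 were FAS, NGFR, TNFRSF19, TNFRSF6B, TNFSF13, TNFSF4 and TNFSF9. A gene such as CD70, with 3 and 8 reads, passes 2-fold with an interval that includes 1.

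The 9 members listed in HMLER were FAS, NGFR, TNFRSF10A, TNFRSF10C, TNFRSF1B, TNFRSF4, TNFSF4, TNFSF9 and TNFSF18. All were above 0 in MDA-MB-231, and 8 of the 9 were above 2-fold there without a filter, where 46.2% of all listed symbols above 0 were. TNFRSF10A was the exception. All 9 had at least 10 inferred reads over both libraries, and of the listed symbols with that many 42.7% were higher. TNFRSF10C, TNFRSF1B, TNFRSF4 and TNFSF18 had under 10 reads untreated and passed only through the DAC-treated library. The 8 of 9 is therefore no measure of the family. Untreated levels of the listed transcripts were from 0 to 11.9 FPKM in HMLER, and in both lines most listed members started from less than 3 FPKM. Among members above 0 without DAC, the largest HMLER ratios were those of TNFRSF10C, TNFSF18 and TNFSF4, which were under 0.4 FPKM without DAC, and the smallest was that of TNFRSF10A.

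**Figure D4:**
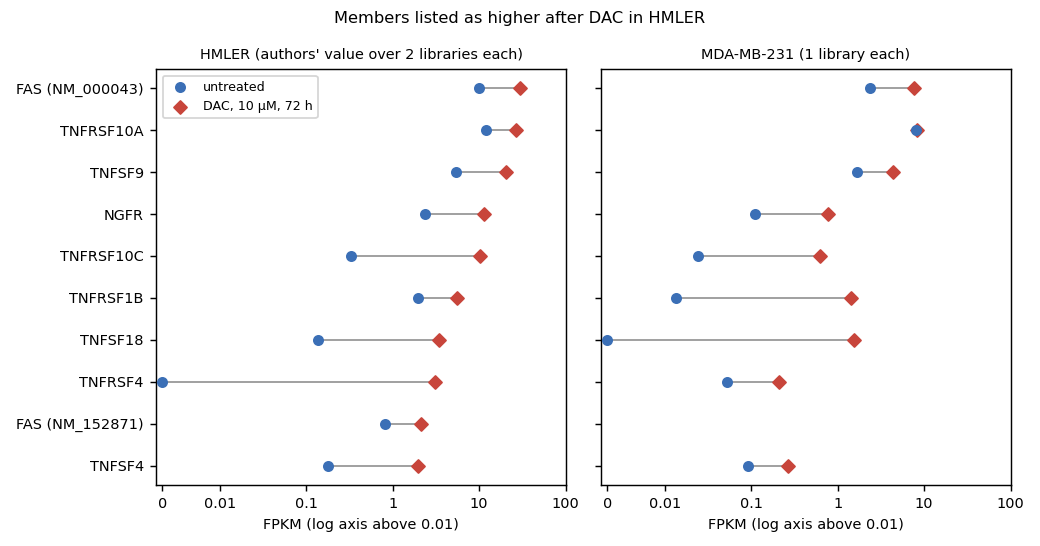
FPKM of the transcripts of members listed in HMLER, untreated and after DAC, in HMLER (the authors' value merged over 2 libraries per condition) and for the same genes in MDA-MB-231 (summed over transcripts, 1 library per condition), on an axis that is logarithmic above 0.01. Every DAC symbol lies to the right in HMLER because the table lists only such transcripts, and in MDA-MB-231 TNFRSF10A is nearly level (8.04 and 8.38 FPKM).

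Downstream of the receptors, RELB and NFKB2, the subunits of the non-canonical NF-κB route, were higher in both lines, and most adaptors, kinases and caspases differed by less than 2-fold in MDA-MB-231. Of 42 proximal signalling genes (adaptors, caspases, IAPs, kinases and NF-κB subunits), 41 passed the filter. Of the 41, 6 were higher in MDA-MB-231 (14.6%, against 10.8% of all genes), and 1 was lower, against 4.82% of all genes. The 6 were RELB, NFKB2, TNFAIP3, TRAF1, BIRC3 and NFKBIE, of which TRAF1 passed only through the DAC-treated library. RELB was at 1.30 and 11.4 FPKM (8.78, 7.24 to 10.8) and NFKB2 at 6.74 and 29.4 FPKM (4.37, 4.05 to 4.72), and these were the pair whose Cuffdiff bounds did not overlap. The canonical subunits RELA (54.7 and 48.0 FPKM) and NFKB1 (14.9 and 12.8 FPKM) were not called, nor was MAP3K14 (NIK, 18.4 and 20.4 FPKM), the kinase of the non-canonical route.

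TNFAIP3 (A20), which limits NF-κB signalling, was at 1.32 and 7.35 FPKM. TRAF1 was at 0.280 and 1.78 FPKM, BIRC3 (cIAP2) at 1.29 and 3.80 FPKM, and NFKBIE, an inhibitor of NF-κB, at 6.28 and 14.4 FPKM. FADD, the adaptor through which FAS recruits caspase-8, was the 1 lower gene, at 60.9 and 23.6 FPKM (0.388, 4286 and 1653 reads). CASP8 (27.9 and 21.9 FPKM), CFLAR (25.3 and 18.1 FPKM), which blocks its activation, and RIPK1 (15.3 and 17.0 FPKM) were not called. The median log2 change of the list was 0.02, so the higher genes were a minority.

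Of 19 genes listed as targets of the pathway, 13 passed the filter and 8 were higher (61.5%, against 10.8% of all genes), with none lower (against 4.82%). TRAF1, ICAM1, CXCL3 and CCL20 passed only through the DAC-treated library, so they could differ only upward and the 61.5% is no measure of the list. At 1 FPKM or more untreated, the higher targets were RELB, TNFAIP3, BIRC3 and NFKBIE, where 4.29% of all such genes were higher. The targets at that level that were not called were TNFAIP2, NFKBIA, SOD2, IL8 and CXCL1. The 2 lists share 6 genes, and 5 of the 8 are in both. The other 3 were ICAM1, an adhesion molecule for leukocytes, at 0.447 and 11.6 FPKM (58 and 1496 reads; 25.96, 19.97 to 34.36), and the chemokines CXCL3 (0.346 and 1.17 FPKM) and CCL20 (0.0738 and 1.004 FPKM, 2 and 27 reads). IL8 was at 6.74 and 13.1 FPKM, just under 2-fold, and NFKBIA at 20.5 and 15.9 FPKM. The table thus held targets with ratios from below 1 to above 20.

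In HMLER, 11 of the 19 targets and 9 of the 42 signalling genes were listed (57.9% and 21.4%, against 7.85% of all symbols). Among all genes past the MDA-MB-231 filter, which 41 of the 42 signalling genes passed, 10.9% were listed. The listed transcripts of CCL20, CYLD and XIAP were under 1 FPKM untreated in HMLER and reached it only with DAC. These counts are therefore no measure of the lists. BIRC3 was at 1.10 and 21.8 FPKM, TNFAIP3 at 1.401 and 15.2 FPKM, NFKB2 at 2.07 and 9.40 FPKM, and RELB at 5.25 and 15.7 FPKM. Among targets, CCL20 was at 0.767 and 18.6 FPKM, IL8 at 5.397 and 30.6 FPKM, IL6 at 2.70 and 13.1 FPKM, and ICAM1 at 6.05 and 25.1 FPKM. In both lines 5 of the 41 signalling genes past the filter (RELB, NFKB2, TNFAIP3, BIRC3 and NFKBIE) and 7 of the 13 targets were higher. Over all genes past the filter the share was 3.66%. The 2 counts share 4 genes, RELB, TNFAIP3, BIRC3 and NFKBIE. Among the 7 targets, ICAM1, CXCL3 and CCL20 passed only through the DAC-treated MDA-MB-231 library, so the 7 is no measure of the list. Neither FADD nor TRAF1 was listed.

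**Figure D5:**
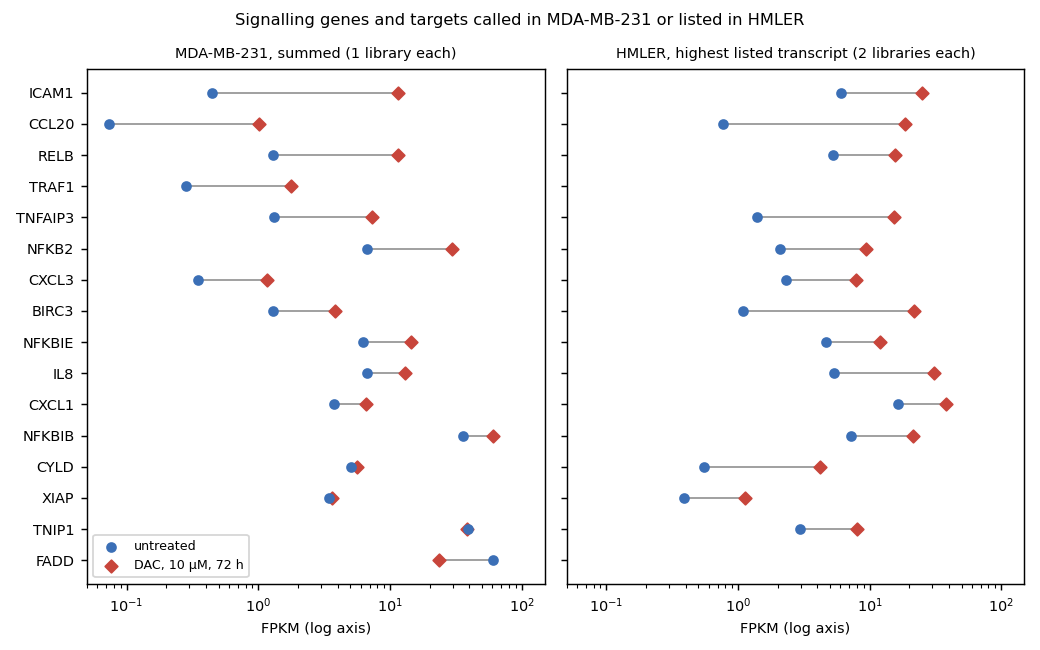
FPKM (log axis), untreated and after DAC, of signalling and target genes at 1 FPKM or more in an MDA-MB-231 library and past 2-fold there or listed in HMLER. IL6 and CCL5, listed in HMLER, did not reach that level and are not shown. On the left is MDA-MB-231 (summed, 1 library each), on the right the highest listed HMLER transcript (merged over 2 libraries each). RELB, NFKB2, TNFAIP3 and ICAM1 lie to the right after DAC in both panels, and FADD lies to the left in MDA-MB-231 with no HMLER entry.

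Markers of the cell type were checked, since much of the family is known from blood cells. KRT8, KRT18 and EPCAM, epithelial genes, were at 7.90 FPKM or more in both MDA-MB-231 libraries, while KRT19 was at 0.518 and 13.5 FPKM, CDH1 at 0 and 0.179 FPKM, and KRT5 and KRT14 under 0.05 FPKM in both. The mesenchymal genes did not share a direction: VIM was at 3066 and 1134 FPKM and ZEB1 at 31.1 and 15.2 FPKM, but FN1 at 39.8 and 111.3 FPKM and CDH2 at 0.0902 and 1.06 FPKM. Of 11 T cell, B cell and myeloid markers, CD68 was at 137.1 and 161.9 FPKM, and the other 10 summed to 0.305 and 1.78 FPKM, with CD2 and MS4A1 at 0 in both. None of the 11 was listed in HMLER. The defining markers of blood cells were thus near 0 in the libraries where TNFSF9, TNFSF18 and TNFRSF1B were read.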

How the data were processed

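RNA was polyA-selected and libraries were made with the Illumina TruSeq RNA kit. Per the labels and the study's methods, the authors aligned reads to hg19 with TopHat2 and used Cuffdiff, on a Galaxy server, to compute the deposited FPKM of each RefSeq transcript, and versions, library scaling and strand setting are not given in the sources used here. Each library pooled several extractions. The MDA-MB-231 table holds 1 FPKM and its bounds per library, and the HMLER table the authors' FPKM merged over 2 libraries per condition, already restricted to transcripts that were higher. Columns of the authors' fold changes, p-values and q-values were not used. Total read counts were not used here. The summed FPKM was 589238 untreated and 480455 after DAC in MDA-MB-231.

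FPKM was summed per symbol. Calls needed a ratio past 2-fold and 1 FPKM in at least 1 library, and log2 changes used a pseudocount of 1 FPKM, which understates the change of low genes. No test across genes was run. What 1 read is worth was found from transcripts of at least 2000 bases that are alone at their locus (length less 200 bases): 0.0235 FPKM untreated and 0.0236 FPKM after DAC at 1 effective kilobase. Read intervals are exact Poisson and ratio intervals exact Clopper-Pearson, at 95%. Steps were tested on simulated data. Every member with 1 FPKM in at least 1 library or listed in HMLER was named, other members were summarised, and of the pathway lists at most 10 past the threshold were chosen by size of change; genes named beyond these, such as FADD's partners, were picked after their values were seen. Members and lists were chosen with earlier results of these data known. Promoter entries were given for 28 members, and 36 of their 37 entries matched GRCh37 once; a TNFSF4 entry lies inside the transcript measured and was not printed. Alternatives were other filters, a pseudocount in the ratio, division by the median ratio, the largest transcript, and only transcripts with status OK. Non-overlapping bounds, 10 inferred reads, the counts of genes that pass a filter in the untreated library and leaving out haplotype contigs were chosen after seeing the data. The scripts ran in Python 3.11.15 with pandas 2.3.3, scipy 1.17.1, numpy 2.4.6 and matplotlib 3.10.9.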

Additional observations from a re-analysis of the deposited data

How the results depend on the processing

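No paired analysis was possible because each comparison had 1 value per condition, and for the same reason no library could be left out in turn. Against 6 members higher in MDA-MB-231, 21 were higher with no filter on low values, 3 at 5 FPKM or more, 18 with at least 10 inferred reads and 1, FAS, with bounds that do not overlap. TNFSF12, the 1 lower member, was joined by 3 others with no filter (4 in all), and 0 were lower with a pseudocount of 1 FPKM in the ratio, division by the median ratio, the largest transcript or bounds that do not overlap. Against 4 members higher in both lines, 8 were with no filter and with 10 inferred reads, 2 with 1 FPKM in both libraries or a mean of 1 FPKM, and 1 at 5 FPKM or with bounds that do not overlap. Of the 9 members listed in HMLER, 5 had a transcript at 1 FPKM or more in both conditions. The 6 higher and 1 lower signalling genes became 2 and 0 with bounds that do not overlap. The median log2 change of members, -0.07, was 0.11 with the largest transcript, 0.050 after division by the median ratio and -0.24 with a mean of 1 FPKM or more, so its sign was not stable. Over all genes, 1350 higher and 604 lower became 5193 and 1080 with no filter, and 131 and 47 with bounds that do not overlap; higher genes alone became 465 at 5 FPKM, 494 with 1 FPKM in both, 863 with the pseudocount and 3077 with 10 inferred reads. Of 22 named members under 3 alternatives, 51 log2 changes moved little and 15 moved more, TNFRSF25 changing sign from -0.28 to 0.17 with its largest transcript. Depth limits the members under 10 reads, and the cause of these shifts was not tested.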

Other observations

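Relatives of the family whose symbols fall outside the naming rule were read in the same way. RELT, a receptor of the superfamily, was at 11.3 FPKM untreated and 11.1 FPKM after DAC in MDA-MB-231 (ratio 0.982, 0.916 to 1.06). EDA, the ligand ectodysplasin, was at 0.806 and 0.686 FPKM. Its receptors were near 0, with 1 inferred read in each library for EDA2R, and 0 and 2 reads for EDAR. None of these 4 genes was listed in HMLER, and none was past 2-fold with 1 FPKM or more.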
